A study of Homo sapiens with 16 samples.

Results

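Binding of the repressors BCL11A and ZBTB7A was described at 10 genes of erythropoietin and KIT signalling: EPOR, KIT, JAK2, LYN, STAT5A, STAT5B, SOCS3, CISH, SH2B3 and PIM1. The genes were named for their role in the pathway, with earlier results of these data known, out of 19343 genes with a protein-coding (NM) transcript in the annotation the authors deposited. For each gene, the regions of 4 deposited peak lists were taken from its promoter (within 1 kb of an NM start), its body and 50 kb on each side. A region was placed by its summit, or by its midpoint where no summit was given. This gave 233 of the 85461 regions: 42 of 12911 for BCL11A, 50 of 17331 for ZBTB7A in K562, 88 of 36435 for ZBTB7A in WT HUDEP-2 and 53 of 18784 for ZBTB7A in 195C>G HUDEP-2.

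Erythropoietin binds its receptor EPOR, on which the kinase JAK2 sits, and active JAK2 leads STAT5A and STAT5B to enter the nucleus as transcription factors. KIT is the receptor tyrosine kinase for stem cell factor (SCF) and supports erythroid progenitors together with EPOR. CISH and SOCS3 are induced by this signalling and restrain it, SH2B3 is an adaptor that dampens JAK2 and KIT, PIM1 is a survival kinase induced by STAT5, and LYN is a Src-family kinase that works with both receptors.

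Chromatin immunoprecipitation with sequencing, which locates a protein on DNA, was done in 16 libraries, 8 ChIP and 8 controls. HUDEP-2 is an immortalised line of human erythroid progenitors, whose medium held the KIT ligand SCF at 50 ng/mL and EPO at 3 IU/mL, with dexamethasone and doxycycline. K562 is an erythroleukaemia line, for which the labels list serum-containing medium with neither EPO nor SCF. BCL11A came from HUDEP-2 cells with a BCL11A-ER-V5 fusion induced by 4-hydroxytamoxifen (1e-07 M, 24 h) and precipitated through its V5 tag, so the list describes an induced, tagged protein (2 ChIP and 2 control libraries). ZBTB7A came from K562 (4 and 4) and from HUDEP-2 cells whose labels read (ΔGγ), in a WT line and in a line with the 195C>G change (1 and 1 each); both share the (ΔGγ) modification, so neither is an unmodified control. The labels call the controls input in their titles and IgG in the antibody field, and do not say whether the WT and 195C>G lines are single clones. No RNA was measured, so the identity of the cells could not be checked against marker genes.

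Lists were called over pooled replicates (BCL11A, K562) or on 1 library (WT, 195C>G), so no value has a replicate error and no test between lists is given. Scores (BCL11A) and signals (WT, 195C>G) are the authors' own, and ranks follow them within a list, rank 1 being the strongest. The K562 list holds no value, and its rank is the order of the file: 79.2% of the regions in its first 10% and 53.9% of those in its last 10% were overlapped by a WT region. Read depth is unknown. Lists differ in length and peak calling, so ranks are set side by side and not compared as amounts of binding. None of the 10 genes lies on chromosome 11, which was modified in the genome used for the WT and 195C>G lists, and shares over all genes leave chromosome 11 out.

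Promoter sequences are shown for 4 genes, which stand for the range of patterns met below. The EPOR start holds the highest-ranked BCL11A region of the 10 genes, and the CISH start lies in BCL11A and K562 regions only. The STAT5B start carries the best ZBTB7A promoter ranks by summit or midpoint, and the KIT start has no region in any list. The sequences are RefSeq's for GRCh38.p14, each read on the gene's strand and ending just before the NM start of the authors' annotation. Capitals mark AGATAA or its reverse complement TTATCT (bound by GATA factors) and TTCNNNGAA (bound by STAT factors).
EPOR (chr19:11384343-11384564, minus strand): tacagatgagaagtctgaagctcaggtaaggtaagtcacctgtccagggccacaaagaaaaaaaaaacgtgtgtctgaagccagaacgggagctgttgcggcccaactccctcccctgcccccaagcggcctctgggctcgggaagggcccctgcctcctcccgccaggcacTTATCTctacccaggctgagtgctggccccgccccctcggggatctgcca
CISH (chr3:50611832-50612024, minus strand): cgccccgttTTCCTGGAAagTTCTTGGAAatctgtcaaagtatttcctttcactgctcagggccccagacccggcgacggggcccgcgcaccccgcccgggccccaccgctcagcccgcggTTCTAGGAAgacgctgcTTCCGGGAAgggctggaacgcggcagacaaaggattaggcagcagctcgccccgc
STAT5B (chr17:42276407-42276641, minus strand): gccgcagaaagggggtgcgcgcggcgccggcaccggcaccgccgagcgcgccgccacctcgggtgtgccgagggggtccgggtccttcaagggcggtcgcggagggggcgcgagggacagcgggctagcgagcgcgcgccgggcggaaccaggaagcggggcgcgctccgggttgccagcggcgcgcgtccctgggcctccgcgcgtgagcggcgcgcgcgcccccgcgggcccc
KIT (chr4:54657707-54657927, plus strand): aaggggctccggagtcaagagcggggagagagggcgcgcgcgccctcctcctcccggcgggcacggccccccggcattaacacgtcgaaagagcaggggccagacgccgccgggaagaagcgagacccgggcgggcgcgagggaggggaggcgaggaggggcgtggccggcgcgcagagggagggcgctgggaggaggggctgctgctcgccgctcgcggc

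RefSeq promoter entries were found for 9 of the 10 genes (16 entries, since several have alternative starts), all but LYN. In the 250 bases before each start, both strands were searched for the GATA-type strings AGATAA and, counted separately, TGATAA. The STAT-type string TTCNNNGAA, the BCL11A element TGACCA and the C-rich string CCTTCCCC, taken for ZBTB7A, were searched in the same way. Over 35116 promoters of the same length, the share with a match was 9.17% for AGATAA, 6.66% for TGATAA, 6.57% for TTCNNNGAA, 9.19% for TGACCA and 5.21% for CCTTCCCC. EPOR held 1 AGATAA match, which reads TTATCT on the gene's strand from -78 to -73 of the RefSeq start and lies inside a region of all 4 lists. CISH held 4 TTCNNNGAA matches, from -241 to -233, -230 to -222, -129 to -121 and -112 to -104. All 4 lie inside the K562 region there, and the last 2 also inside a BCL11A region. SH2B3 held 1 AGATAA match before its downstream start. No entry of the 9 genes held the TGATAA string, the BCL11A element or the C-rich string, which says only that these letters are not in this window.

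BCL11A had a promoter region at 5 of the 10 genes (EPOR, LYN, SH2B3, CISH and JAK2), against 24.6% of all genes. ZBTB7A had one at 6 in K562 (STAT5B, SOCS3, SH2B3, EPOR, PIM1 and CISH; all genes 33.3%), at 7 in WT (STAT5B, SOCS3, EPOR, LYN, JAK2, SH2B3 and STAT5A; 45.4%) and at 5 in 195C>G (STAT5B, JAK2, EPOR, LYN and SOCS3; 29.5%). Within 1 kb, EPOR alone of the 10 had a promoter region in all 4 lists, as had 10.1% of all genes, and KIT alone had none, as had 44.6%. Within 5 kb JAK2 and SH2B3 joined EPOR, making 3 of 10, against 13.4% of all genes. No site of JAK2 or SH2B3 was found in all 4 lists, and the SH2B3 regions lie at different starts. PIM1 joined KIT within 500 bp, and STAT5A joined it in the stronger 50% of each list. STAT5A was bound at its promoter in WT only (7.11% of all genes), by a region at rank 30836 of 36435. Counting any overlap with the 1 kb window added STAT5A in K562 and 195C>G. SH2B3 was bound in every list but 195C>G (2.19%), though in WT at a different start than for BCL11A and K562. A promoter region in the strongest 10% of the list was found at 2 of the 10 genes for BCL11A (EPOR and LYN), against 2.77% of all genes. In each ZBTB7A list it was found at STAT5B alone, 1 of the 10 (all genes WT 9.54%, K562 4.6%, 195C>G 3.85%). Within 500 bp of a start the K562 count was 3, since the STAT5B, SH2B3 and PIM1 regions lie farther out. Shares over all genes were not computed for 500 bp, for any overlap or for the stronger 50%, so the counts at these settings have no background. The limit of 1 kb separates nearby regions: in WT the EPOR region at 1049 bp (rank 176) fell outside and the LYN region at 783 bp (rank 32542) inside, and in 195C>G EPOR at 1051 bp (rank 305) fell outside and LYN at 992 bp (rank 15509) inside.

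**Figure D1:**
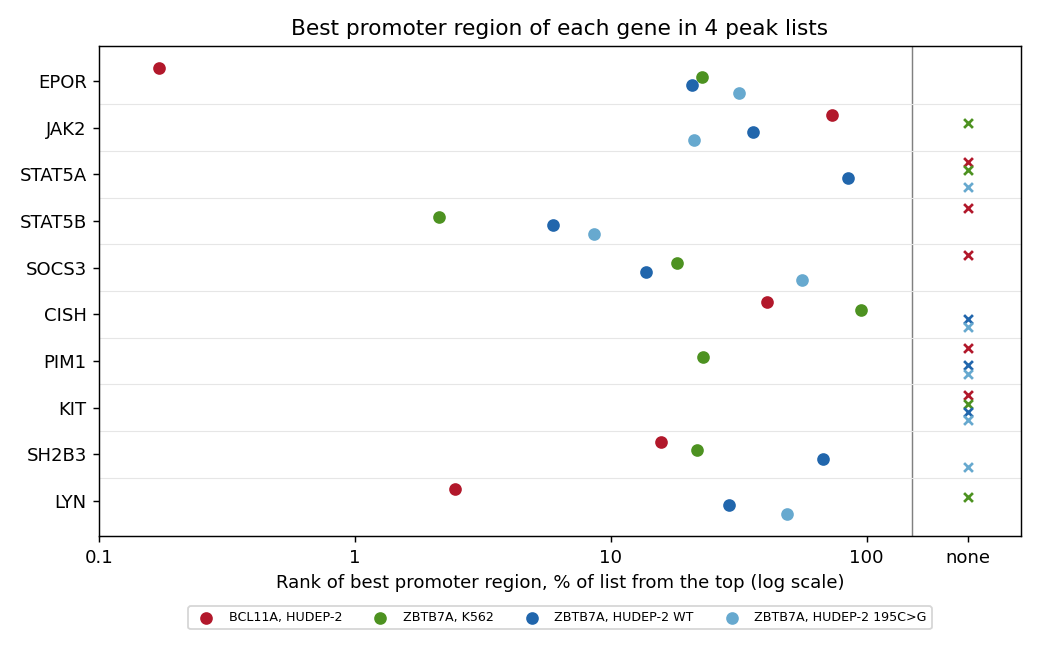
Position of the best promoter region of each gene (rows) within each peak list, in percent of the list from the top on a log axis; 1 point per gene and list, and crosses at "none" mark genes with no promoter region. EPOR stands at 0.170% of the BCL11A list and LYN at 2.45%, STAT5B leads the 3 ZBTB7A lists at 2.13%, 5.93% and 8.56%, and KIT has crosses only.

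Taking the gene body and 50 kb on each side as well, every gene had a region in the BCL11A, WT and 195C>G lists, and 9 of 10 had one in K562, KIT being the exception. The shares over all genes were 60.5%, 77.4%, 65.0% and 67.8%. The median number of regions per gene was 11 in WT (3 over all genes), 5 in 195C>G (1), 5.5 in K562 (1) and 4.5 for BCL11A (1). These counts grow with the length of a gene, with the number of genes around it and with regions that overlap each other, none of which was matched. Of the 42 BCL11A regions 10 were promoter regions of the 10 genes, 8 lay in gene bodies and 24 in the flanks. In WT 12 of 88 were promoter regions, 23 lay in gene bodies and 53 in the flanks. Between 4 (195C>G) and 9 (WT) regions of a list lay at the promoter of another gene in the window. The same split over the windows of all genes was not computed, so these counts have no background beside them.

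EPOR (chromosome 19, 11377205 to 11384342, hg38, minus strand) carried the strongest BCL11A promoter region of the 10 genes. That region ran from 11384013 to 11384536 over the start and the first exon, with a score of 951 at rank 22 of 12911, in the top 0.170% of the list. Among all genes off chromosome 11, 6 had a BCL11A promoter region of better rank. All 3 ZBTB7A lists also had a region there, with a WT signal of 44.0 (rank 7541), a 195C>G signal of 31.9 (rank 13679) and a K562 rank of 3933. BCL11A and ZBTB7A in WT thus had regions at the same place that stood at very different points of their own lists.

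In both HUDEP-2 lists the strongest ZBTB7A region at EPOR lay inside the gene, in the first intron. In WT this region ran from 11382975 to 11383824, with its summit 1049 bp into the gene, a signal of 165 and rank 176. In 195C>G it ran from 11383132 to 11383438, with its summit at 1051 bp, a signal of 149 and rank 305, beside a weaker region at 846 bp (signal 50.9, rank 5974). Both summits lie just past the 1 kb limit, so they do not count in the promoter ranks. K562 had a single region across the same stretch, 11382803 to 11383916, at rank 6137, and its best region of the window was the one at the RAB3D promoter (rank 2864). BCL11A had 2 regions inside this K562 stretch, and both overlapped the WT region. The first lay in the first intron with its midpoint at 775 bp (score 114, rank 1035). The other lay in the second intron at 1367 bp (score 93.3, rank 1413). Their midpoints fell on either side of the strongest HUDEP-2 ZBTB7A summits.

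Away from the start, BCL11A had 2 overlapping regions upstream of EPOR, at -16719 and -16926 bp, with scores of 52.3 each and ranks 3238 and 3239, and no ZBTB7A list overlapped them. A BCL11A region in the fourth intron (11381501 to 11381870, score 30.3) was overlapped in WT. WT had 15 regions around EPOR and 195C>G had 6, and 9 of the 15 met no 195C>G region. Those 9 had WT ranks of 14784 or worse. On chromosome 19, which holds EPOR, a 195C>G region overlapped 40.0% of WT regions, against 54.3% over the chromosomes used, and the part of this in the EPOR count was not tested. The farthest downstream regions, 37892 to 44743 bp from the start, sit at the promoters of RAB3D and of TMEM205 with CCDC159 or inside TMEM205.

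**Figure D2:**
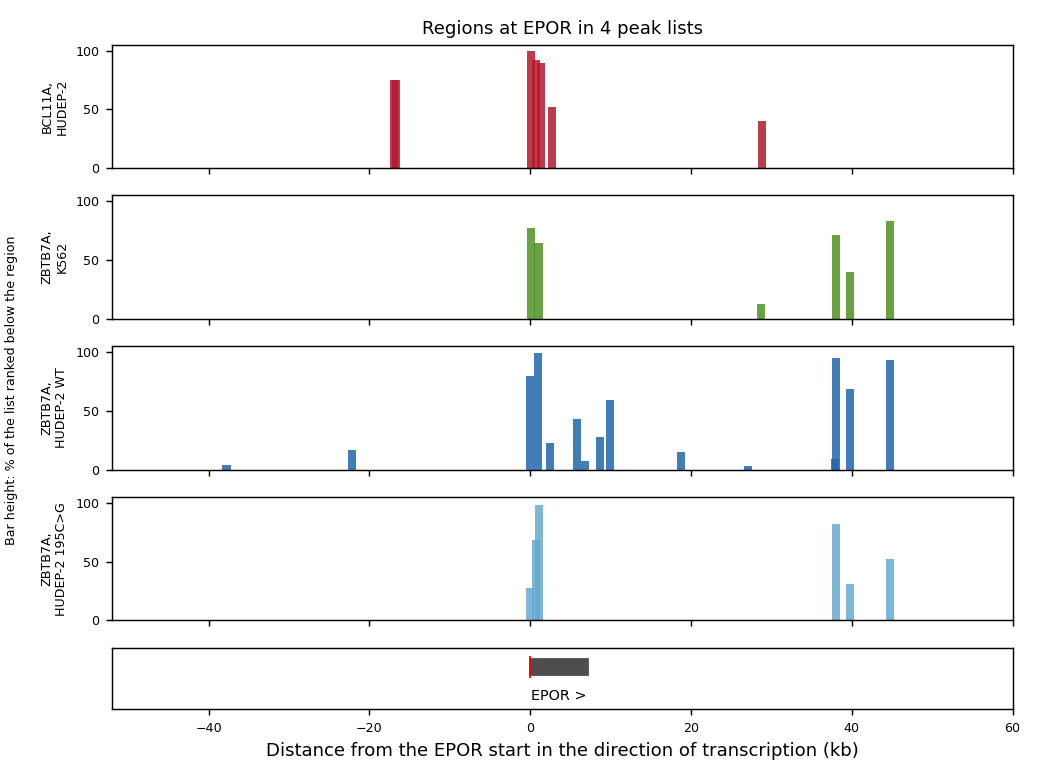
Regions of the 4 peak lists by distance from the EPOR start in the direction of transcription (kb); bar height is the percent of the list ranked below the region, bars are drawn at least 1 kb wide, and the grey box is the gene with its start in red. BCL11A is highest over the start itself, and both HUDEP-2 ZBTB7A lists are highest about 1 kb into the gene.

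KIT (chromosome 4, 54657928 to 54740715, hg38) had 4 regions in all, and none at its promoter. A site in the first intron, 10248 to 10266 bp from the start, was found in 3 lists. There WT had a region from 54668064 to 54668252 (signal 44.7, rank 7330), 195C>G one from 54668033 to 54668254 (signal 54.4, rank 5208) and BCL11A one from 54667992 to 54668361 (score 15.1, rank 11895 of 12911). The only other region was a WT region 19597 bp from the start, with a signal of 16.4 and rank 32433. K562 had no region in the whole window, and with 100 kb on each side still 9 of the 10 genes had a K562 region. With 50 kb on each side 67.8% of all genes had one, and the share at 100 kb was not computed. EPOR and KIT thus each had a ZBTB7A region in the first intron in both HUDEP-2 lists. So did LYN and STAT5B, as well as JAK2 in WT and SOCS3 in 195C>G. K562 also had a region at the EPOR site, and the share of all genes with a first-intron region was not computed. BCL11A stood near the top of its list at EPOR and near the end of it at KIT.

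JAK2 (chromosome 9, 4985086 to 5128183, hg38) encodes the kinase bound to EPOR. BCL11A had 3 weak regions side by side at its promoter, with midpoints -277, -48 and 77 bp from the nearest start and scores of 19.2, 20.1 and 15.7 (best rank 9431). ZBTB7A in WT had a region at 433 bp (signal 31.9, rank 13099) and one at -561 bp (signal 16.0), and 195C>G had one at 360 bp (signal 61.8, rank 3988). K562 had none at the promoter. Another site lay in an intron 2867 to 2966 bp from the start, found in all 3 ZBTB7A lists and not for BCL11A. Its signal was 67.7 in WT (4988119 to 4988316, rank 3083) and 56.3 in 195C>G (rank 4863), and its K562 rank was 6764. It ranked above the promoter region in WT and below it in 195C>G.

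LYN (chromosome 8, 55879827 to 56012447, hg38) encodes the Src-family kinase, and had 40 regions over the 4 lists, the most of the 10 genes. BCL11A had 2 promoter regions, one in the first intron with its midpoint at 686 bp (55880260 to 55880766, score 236, rank 316) and one at -89 bp (55879614 to 55879863, score 113, rank 1057). WT had regions at 454 and 783 bp (signals 36.2 and 16.4) and 195C>G at 793 and 992 bp (signals 40.4 and 29.4). K562 had no promoter region at LYN, a combination of lists that JAK2 also had, as had 3.7% of all genes.

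The best ZBTB7A regions at LYN were upstream in WT and K562. In 195C>G the best was downstream of the gene, 134238 bp from the start (56013919 to 56014239, signal 96.2, rank 1329), and overlapped a WT region of signal 39.2 (rank 9276). An upstream site, with best regions at -31822 to -31750 bp, was found in all 4 lists. BCL11A had it from 55847922 to 55848088 (score 69.5, rank 2171), WT from 55847900 to 55848279 (signal 110, rank 827) and 195C>G from 55847952 to 55848175 (signal 74.3, rank 2603), while K562 had 2 overlapping regions there at ranks 5400 and 5401. A second upstream site, with best regions at -27970 to -27942 bp, was found in the 3 ZBTB7A lists, with a signal of 83.5 in WT (rank 1841), 74.1 in 195C>G (rank 2631) and a K562 rank of 2193. Another, near -10779 bp, was found in both HUDEP-2 ZBTB7A lists only, with signals of 81.2 (WT, rank 1974) and 71.9 (195C>G, rank 2823). BCL11A had a region of its own at -26460 bp (score 107, rank 1151), which no ZBTB7A list overlapped.

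**Figure D3:**
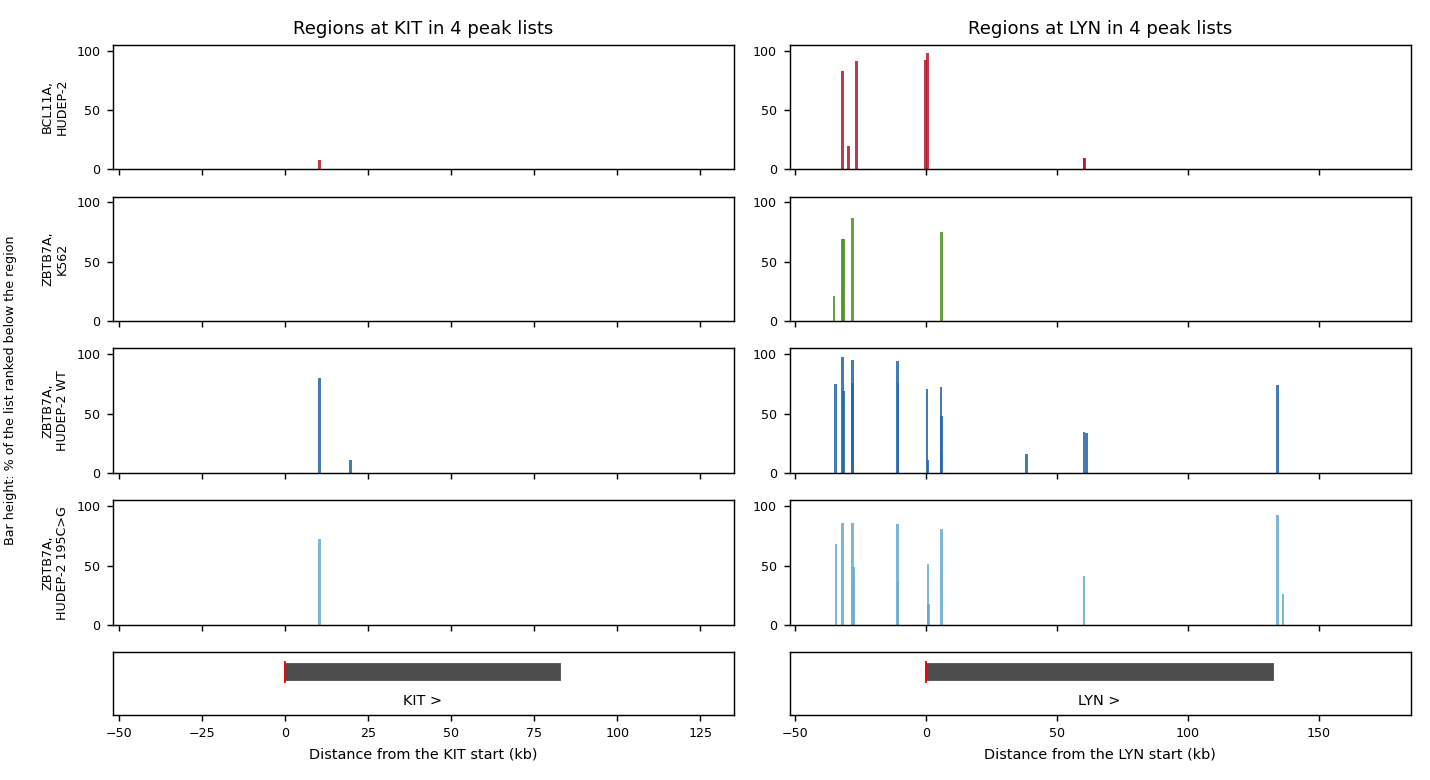
Regions of the 4 peak lists by distance from the KIT start (left) and from the LYN start (right), in kb; bar height is the percent of the list ranked below the region, bars are drawn at least 1 kb wide, and the grey box is the gene with its start in red. KIT has an intronic site in 3 lists and no K562 bar, while LYN has BCL11A bars at the start and a shared upstream site in all 4 lists.

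STAT5A (chromosome 17, 42287547 to 42311942) and STAT5B (42199177 to 42276406, minus strand; hg38) encode the 2 transcription factors of the pathway. The genes lie head to head, so their windows share regions. With regions placed by summit or midpoint, the STAT5B promoter had the best ZBTB7A promoter rank of the 10 genes in each ZBTB7A list. In WT and 195C>G, EPOR regions of better rank (176 and 305) reach into the 1 kb EPOR window but have summits just outside it. The K562 region ran from 42276342 to 42277487 (rank 369), the WT region from 42276975 to 42277282 (signal 78.4, rank 2160) and the 195C>G region from 42277003 to 42277300 (signal 89.7, rank 1608). These regions were centred at -725 to -508 bp from the start, and the sequence shown above lies inside the K562 region and in no other. Each ZBTB7A list also had a region in the first intron of STAT5B, at best ranks of 7916 (WT), 8530 (195C>G) and 3961 (K562). BCL11A had no promoter region at STAT5B or STAT5A.

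Distances for STAT5A are from the nearest of its 3 annotated starts. STAT5A had a promoter region in WT only, at 205 bp with a signal of 17.1 and rank 30836 of 36435, near the end of the list. In K562 and 195C>G the nearest regions were just beyond 1 kb, at 1111 bp (rank 11126) and 1206 bp (signal 58.6, rank 4478), where WT had a region at 1279 bp as well (signal 48.8, rank 6214).

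The region of best rank in each ZBTB7A list over all 10 windows lay downstream of STAT5A, past its 3′ end and within the neighbouring gene STAT3, which encodes another STAT factor. It was 32039 to 32067 bp from the STAT5A start. K562 had it from 42319785 to 42320445 (rank 43), WT from 42319772 to 42320439 (signal 184, rank 118) and 195C>G from 42319864 to 42320384 (signal 211, rank 67). BCL11A had a region there with a score of 20.2 at rank 9385. Closer to the gene, at 24816 to 24904 bp, a second site had signals of 120 in 195C>G (rank 664) and 104 in WT (rank 976), and K562 rank 119 (42312309 to 42313436). Here BCL11A had 2 regions, with scores of 50.8 and 46.4 at ranks 3361 and 3784. At both sites all 4 lists had overlapping regions, and all 3 ZBTB7A lists placed them in their strongest 10% while BCL11A did not.

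**Figure D4:**
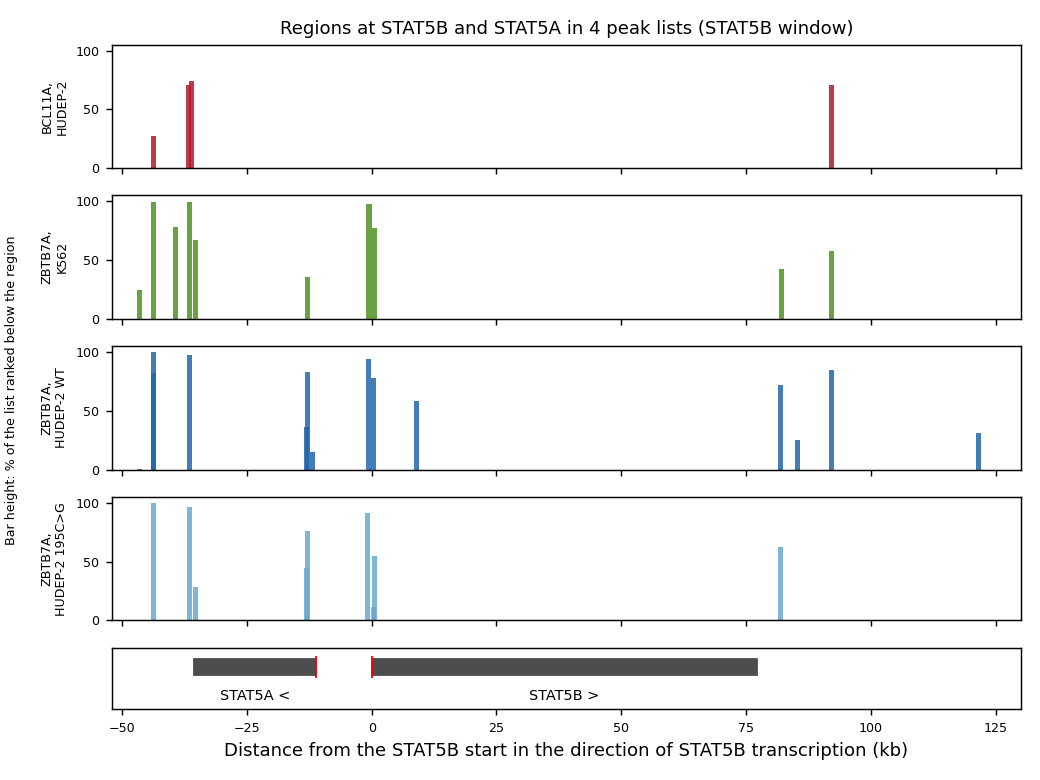
Regions of the 4 peak lists in the STAT5B window by distance from the STAT5B start in the direction of STAT5B transcription (kb); bar height is the percent of the list ranked below the region, bars are drawn at least 1 kb wide, and grey boxes are the genes with their starts in red. The tallest ZBTB7A bars lie beyond the 3′ end of STAT5A at the left and at the STAT5B start, where BCL11A has no bar.

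SOCS3 (chromosome 17, 78356777 to 78360079, minus strand, hg38), a feedback inhibitor of JAK2, had promoter regions in all 3 ZBTB7A lists and not for BCL11A, as had 10.0% of all genes. K562 had a region at -319 bp (78360095 to 78360702, rank 3139). WT had 3 overlapping regions at -487 bp (signal 54.2, rank 5007), -691 bp (signal 28.6) and -100 bp (signal 20.5), and 195C>G had regions at -691 bp (signal 37.5, rank 10549) and 361 bp (signal 36.3). The nearest BCL11A regions were a weak one 16842 bp downstream of the start (score 13.6) and one at the promoter of the neighbouring gene PGS1 (score 17.0).

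CISH (chromosome 3, 50606454 to 50611831, minus strand, hg38), another feedback inhibitor and a classical STAT5 target, showed the other arrangement, with BCL11A and K562 promoter regions and none in WT or 195C>G (2.52% of all genes). BCL11A had a region at 92 bp (50611555 to 50611924, score 21.4, rank 8864) and one at -664 bp (50612445 to 50612545, score 35.0, rank 5286). The K562 region at -72 bp (50611709 to 50612097) covered the 4 STAT-type matches of the sequence above and stood at rank 16509 of 17331. This promoter is shared with the neighbouring gene MAPKAPK3, which has a start within 1 kb of the same regions. The best BCL11A region of the window lay 10691 bp downstream of the CISH start (score 77.5, rank 1881), outside every ZBTB7A region. WT and 195C>G had regions only in the flanks, and 195C>G regions overlapped all 5 WT regions, which had ranks from 6106 to 11503.

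SH2B3 (chromosome 12, 111405948 to 111451623, hg38), the adaptor that restrains JAK2 and KIT, has 2 starts in the annotation. At the upstream start BCL11A had a region at -600 bp (111405221 to 111405476, score 73.3, rank 2023), which a K562 region overlapped (111404746 to 111405849, rank 3754). Neither HUDEP-2 ZBTB7A list had a region there. WT instead had a weak region at 211 bp from the downstream start (signal 20.5, rank 24521). The best K562 region of the window was in the first intron, 4087 bp from the start (111409765 to 111410305, rank 444), and overlapped a BCL11A region (score 31.7, rank 5923). No HUDEP-2 ZBTB7A region overlapped that site either.

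PIM1 (chromosome 6, 37170146 to 37175428, hg38), the survival kinase, had a promoter region in K562 only, at 849 bp (37170725 to 37171266, rank 3970), as had 3.85% of all genes. Its other strong regions lay downstream. The best BCL11A region was 12885 bp from the start (37182876 to 37183186, score 168, rank 583). A K562 region at rank 965 overlapped it, and that K562 region also overlapped WT (signal 50.7, rank 5758) and 195C>G (signal 66.4, rank 3401) regions which the BCL11A region did not touch. At 21819 to 21855 bp the 3 ZBTB7A lists had a site without BCL11A, with signals of 110 in 195C>G (rank 882) and 68.1 in WT (rank 3034) and K562 rank 740.

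Over all 10 genes, the regions of the 4 lists merged into 106 separate sites. Of these 7 were found in every list, 15 in the 3 ZBTB7A lists without BCL11A, 7 in BCL11A and K562 alone, 13 in BCL11A alone and 26 in WT alone, the longest list. A site joins regions through chains of overlap, so its regions need not all overlap each other, as downstream of PIM1. The share of each pattern over all sites of the 4 lists was not computed, so these counts have no background beside them. Of the 42 BCL11A regions, 19 (45.2%, exact Clopper-Pearson 95% interval 29.8 to 61.3%) were overlapped by a WT region, against 57.5% of all BCL11A regions. K562 regions overlapped 18 (42.9%, 27.7 to 59.0%) against 31.8%, and 195C>G regions 10 (23.8%, 12.1 to 39.5%) against 39.6%. With reciprocal overlap of 50% the share met by WT regions fell to 16.7% (all BCL11A regions 33.5%) and that met by K562 regions to 21.4% (18.8%). The intervals cover counting error only and treat regions as independent, which neighbouring regions are not. The first 2 intervals include the share over all regions, and that for 195C>G ends just below it, at 39.5%. Of the 50 K562 regions, 31 (62.0%) met a WT region, against 62.5% of all K562 regions, 26 (52.0%) a 195C>G region, against 46.2%, and 17 (34.0%) a BCL11A region, against 24.2%. K562 regions overlapped 41 of the 88 WT regions (46.6%, 35.9 to 57.5%), against 35.9% of the whole WT list. BCL11A regions overlapped 11 of the 53 195C>G regions (20.8%), against 29.3%.

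The WT and 195C>G lists ask which ZBTB7A regions at these genes were found in both lines. A 195C>G region overlapped 49 of the 88 WT regions (55.7%, 44.7 to 66.3%), where the whole WT list had 54.3%. The rate of all WT regions of the same rank deciles would give 49.7 of the 88. Conversely 46 of the 53 195C>G regions (86.8%) were overlapped in WT, against 89.4%. LYN had 13 of its 16 overlapped (10.0 at the rate of its rank deciles), CISH 5 of 5 (3.88) and STAT5A 8 of 10 (6.81). SH2B3 had 2 of 12 (5.11), EPOR 6 of 15 (7.37) and SOCS3 4 of 9 (5.20). The best-ranked of the 39 WT regions that no 195C>G region met lay 92107 bp from the STAT5B start, downstream of that gene (42183977 to 42184620, signal 51.0, rank 5691), and both a K562 and a BCL11A region overlapped it. With 1 library per arm, a region missing from 195C>G is not shown to be lost, and the interval of the share at these genes includes the share of the whole list.

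**Figure D5:**
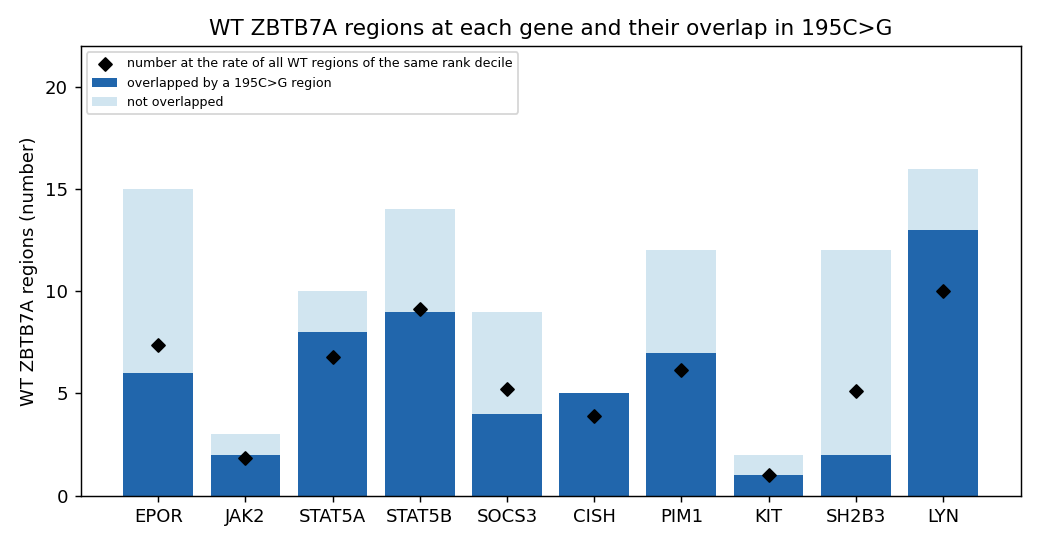
Number of WT ZBTB7A regions at each gene, split into those overlapped (dark) and not overlapped (light) by a 195C>G region; diamonds give the number at the rate of all WT regions of the same rank decile. The dark bar is above the diamond for LYN (13 against 10.0) and below it for SH2B3 (2 against 5.11); STAT5A and STAT5B share regions.

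Other genes of the pathway were taken from a list of 42 ligands, kinases, adaptors, inhibitors and survival genes, 40 of them off chromosome 11. BCL11A had promoter regions at 14 of these 40, K562 at 22, WT at 30 and 195C>G at 25, beside the 24.6%, 33.3%, 45.4% and 29.5% of all genes. The best-ranked were CRKL, an adaptor gene, for BCL11A (score 217, rank 380), and TFR2, whose product associates with EPOR, in the ZBTB7A lists (195C>G rank 62, WT 103, K562 345). SHC1, an adaptor gene, had ranks of 758 (WT), 771 (195C>G) and 395 (K562), and BCL2L1, a survival gene, 347, 442 and 519 in the same order. SOCS1, an inhibitor of the same family as SOCS3 and CISH, had a promoter region in all 4 lists (WT rank 293, 195C>G 1020, K562 625, BCL11A 2885). TFR2 and SHC1 also had one in all 4, with BCL11A ranks of 2077 and 10873, while BCL2L1 had none for BCL11A. Neither ligand gene, EPO nor KITLG, had a promoter region in any list, which held for 44.6% of all genes. Of the 40, 9 had one in all 4 lists, against 10.1% of all genes.

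A list of 29 other cytokine and growth factor receptor genes, 28 of them off chromosome 11, was set beside EPOR and KIT. BCL11A had promoter regions at 5 of the 28 (24.6% of all genes), K562 at 6 (33.3%), WT at 10 (45.4%) and 195C>G at 6 (29.5%). As KIT, 15 of the 28 had none in any list, beside 44.6% of all genes. IFNAR1, an interferon receptor gene, was the only one of these receptors with a promoter region in all 4 lists, as EPOR had, against 10.1% of all genes. Its ranks were 623 (195C>G), 1342 (WT), 4659 (K562) and 1567 (BCL11A). IGF1R, a growth factor receptor gene, had WT rank 679, 195C>G rank 1282 and K562 rank 6682. IL4R, a cytokine receptor gene, had BCL11A rank 1979, WT rank 4749 and 195C>G rank 7000. The other best-ranked receptors were PDGFRA for BCL11A (rank 4955), IL9R in K562 (rank 8685) and IFNGR1 in 195C>G (rank 5245).

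The promoter ranks most like those of EPOR, in percent of each list and by Euclidean distance over 4 lists, were sought among the 1834 genes with a promoter region in all 4. EPOR stood at 0.170% (BCL11A), 20.7% (WT), 22.7% (K562) and 31.8% (195C>G). These values leave out its strongest HUDEP-2 ZBTB7A regions, whose summits lie just past 1 kb (WT 0.483%, 195C>G 1.62%). The match is thus to EPOR with those regions left out. The 5 nearest genes were ZC3HAV1, SEMA4B, SGMS1, CLIC4 and DYNLRB1, at distances of 7.37 to 10.4 percentage points. Of these SEMA4B came closest in the BCL11A list, at 0.534%.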

How the data were processed

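ChIP-seq regions of 4 deposited peak lists were used. Per the submitters' processing notes, Trimmomatic 0.3.2, Bowtie2 2.2.9, Bowtie, Picard and bedtools were used with GRCh38/hg38; no role or order is stated. The BCL11A and K562 lists are optimal IDR (irreproducible discovery rate) sets over replicates and the WT and 195C>G lists SPP calls, per the names of the deposited files. Each BCL11A region carries a deposited score of unstated scale. The authors' SPP files carry, for each region, a signal of unstated normalization, the −log10 of the false discovery rate (at most 4.34 for WT and 4.07 for 195C>G) and a summit. They use a genome with a modified chromosome 11, per the labels.

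Regions on standard chromosomes were kept and identical ones counted 1 time (13020, 18200, 36868 and 18978 lines before). The K562 regions carry no value, and their order in the deposited file served as rank, a choice made after the file was seen. Overlap meant at least 1 bp. Positions are 1-based. Python 3.11.15 with pandas 2.3.3 was used, and overlap functions were tested on simulated intervals against bedtools 2.31.1. Genes named are the 10 members, the 3 best-ranked of each other list per peak list, and the 5 most like EPOR. Other genes are named as neighbours, or as list members chosen after their values were seen (the ligands). Members and gene lists were chosen with earlier results of these data known. Alternatives were other promoter windows, flanks, overlap rules and the stronger 50% of each list.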

Additional observations from a re-analysis of the deposited data

How the results depend on the processing

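Across 56 alternative settings of 16 results, 46 stayed within 1.5 times the count, or within the 95% interval of the share, and 10 moved. Promoter-bound members in K562 went from 6 to 3 with a 500 bp window, at which the share over all genes was not computed. With the stronger 50% of each list the regions at the 10 genes numbered 49 (WT), 28 (195C>G) and 21 (BCL11A). With 100 kb flanks they numbered 144 (WT), 80 (195C>G) and 81 (K562). These moves follow from fewer regions or longer windows. With reciprocal overlap of 50%, shares were 16.7% (BCL11A by WT), 21.4% (BCL11A by K562) and 46.0% (K562 by WT), and region widths differ between lists (medians 370, 349, 644 and 600 bp). No paired analysis was possible because the lists pool replicates or come from 1 library, and no replicate could be left out for the same reason. Depth is unknown, so places with no region cannot be called unbound.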
